A study of Mus musculus with 5 samples.

Results

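The mitochondrial ribosomal proteins were followed in RNA sequencing libraries of mouse microglia, the resident macrophages of the brain. They were taken as the protein-coding genes whose symbol starts with Mrpl or Mrps and a digit, which gave 77 of the 41388 genes in the count table, 48 of them Mrpl and 29 Mrps. The 5 further rows with such a symbol are not protein coding and are no members. Cells positive for the fluorescent reporter eYFP were sorted from brains of C57Bl/6 mice aged 4 weeks, after 2 mg tamoxifen on postnatal days 14 and 16 in every group. The control group (genotype eYFP-A20fl/wt Cx3cr1-CreERT2/+, 2 libraries) carried 1 floxed A20 allele and a tamoxifen-inducible Cre in the Cx3cr1 locus, so its cells can lose 1 copy of A20 and are labelled partially deficient. The A20 deletion group (genotype eYFP-A20Dmg, 3 libraries) is described as fully deficient, and its genotype label does not name the Cre line. The Tnfaip3 gene makes A20, an enzyme that edits ubiquitin chains and so curbs signalling to NF-kB. Nothing in the labels ties each library to its own mouse. The p-values below therefore describe the scatter of these 5 libraries, part of which may be technical. The comparison asks how the microglial transcriptome differs between these genotypes, here for the genes that build the mitochondrial ribosome.

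Mitochondria hold their own ribosome, which translates the few proteins encoded in mitochondrial DNA, all of them subunits of the respiratory chain and the ATP synthase. Its RNAs come from mitochondrial DNA, while its proteins are encoded in the nucleus, made in the cytosol and imported. Some of these proteins are homologues of bacterial ribosomal proteins, and others have no bacterial counterpart. Mrpl genes are named for the large subunit, which forms the peptide bond, and Mrps genes for the small subunit, which reads the messenger RNA.

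The libraries differed in structure before any member was considered. Totals ran from 9726334 to 15275199 counts, and the members together held between 0.122% and 0.173% of them. Mitochondrially encoded transcripts took between 0.847% and 1.19% of counts in both controls and A20 deletion replicate 1, but 4.63% and 3.56% in A20 deletion replicates 2 and 3. Of the counts of tested genes, those longer than the median took 37.8% and 38.5% in those replicates, against 44.9% to 47.9% in the other libraries. Control replicate 1 and A20 deletion replicate 1 came from female tissue by their Xist counts, and the other libraries did not exceed the count limit set for Xist. The targeted gene Tnfaip3 had a level of 454.1 CPM in the first control and 94.75 CPM in the other, and its A20 deletion levels were 294.6, 276.9 and 347.5 CPM, where CPM are counts set to a common library total after scaling. Since the table counts all exons together, Tnfaip3 does not test whether an exon was deleted. All 6 microglial markers were present, with summed levels of 43412 and 48568 CPM in the controls and between 32465 and 36056 CPM after deletion. Summed markers of T and NK cells (10 genes) were 0.925 and 1.41 CPM against 4.07 to 7.88 CPM. Those of oligodendrocytes (4 genes) were 93.8 and 111.7 CPM against 119.0 to 211.1 CPM. Those of astrocytes (4 genes, of which Aldh1l1 was called higher) were 104.1 and 139.5 CPM against 141.4 to 202.0 CPM. Summed markers of monocytes (6 genes, of which Plac8 was called higher) were 15.9 and 10.8 CPM against 23.7 to 41.8 CPM, and of neurons (4 genes) 4.69 and 1.99 CPM against 6.52 to 7.94 CPM. The summed markers of B cells, neutrophils, endothelium, perivascular macrophages and erythroid cells overlapped between the groups. The endothelial sum (4 genes, 0 called) joined opposite shifts. Pecam1, with 50.6 and 53.1 CPM in the controls, was below both in every A20 deletion library (log2 fold change -0.797). Cldn5 (3.23), Flt1 (1.98) and Cdh5 (1.296) were above both controls in every A20 deletion library. The part of these cells, of the mitochondrial share and of the gene length shift in the results below was not tested. Some values below are given without a library, with a term for the share or with the trend on gene length removed. In bulk samples, fewer cells of a type and less RNA per cell cannot be told apart.

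The 250 bases before the start of 4 members are shown to let both ends of the comparison and the motif matches be seen. Mrpl52 had the smallest p of all members and Mrps2 the lowest log2 fold change. Mrpl45 and Mrps22 had the smallest p among members with a match to the motif of the nuclear respiratory factor NRF1 or of the ETS family, to which the mitochondrial regulator GABPA belongs, counting only members whose stretch overlaps no annotated exon. The sequences are those of RefSeq on GRCm38.p6, on the strand of the gene. They come from chr14:54426659-54426908 (plus strand) for Mrpl52, chr2:28467816-28468065 (plus) for Mrps2, chr11:97315466-97315715 (plus) for Mrpl45 and chr9:98601680-98601929 (minus) for Mrps22. Capitals mark motif matches of the NRF1 and ETS type.
Mrpl52: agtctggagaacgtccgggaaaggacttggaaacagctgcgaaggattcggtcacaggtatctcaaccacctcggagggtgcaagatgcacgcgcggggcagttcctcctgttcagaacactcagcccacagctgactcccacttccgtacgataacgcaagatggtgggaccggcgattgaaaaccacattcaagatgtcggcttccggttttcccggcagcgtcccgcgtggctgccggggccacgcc
Mrps2: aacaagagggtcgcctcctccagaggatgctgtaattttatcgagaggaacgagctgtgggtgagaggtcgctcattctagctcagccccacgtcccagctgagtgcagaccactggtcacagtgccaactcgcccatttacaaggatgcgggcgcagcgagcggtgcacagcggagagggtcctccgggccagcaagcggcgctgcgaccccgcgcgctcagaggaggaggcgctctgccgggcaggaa
Mrpl45: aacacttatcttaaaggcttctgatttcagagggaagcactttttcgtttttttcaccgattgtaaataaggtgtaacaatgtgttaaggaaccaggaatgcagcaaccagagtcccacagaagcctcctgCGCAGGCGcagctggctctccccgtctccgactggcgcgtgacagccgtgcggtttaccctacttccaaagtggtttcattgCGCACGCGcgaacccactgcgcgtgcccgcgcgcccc
Mrps22: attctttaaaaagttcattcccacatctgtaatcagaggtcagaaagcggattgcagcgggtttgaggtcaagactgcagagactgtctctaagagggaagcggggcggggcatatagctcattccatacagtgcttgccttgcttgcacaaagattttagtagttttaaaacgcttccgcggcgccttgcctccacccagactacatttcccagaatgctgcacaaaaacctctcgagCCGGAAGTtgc

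Matches were searched on both strands for CGCNTGCG (NRF1), CCGGAAGT (ETS) and AAGATGGC (the factor YY1). Mrpl45 held NRF1 matches beginning at positions -119 and -37 from the start (the base before the start is -1), and Mrps22 an ETS match at position -11. No match in the windows of Mrpl52 and Mrps2 says only that these letters are not there. Of the 77 members 68 had a window, 74 windows in all. NRF1 letters were found in 22.97% of them, ETS letters in 13.5% and YY1 letters in 5.41%, against 6.76%, 2.88% and 1.56% of all 32851 promoter windows and 14.02%, 5.94% and 1.98% of those of tested protein-coding genes. The median log2 fold change between the groups was 0.25 for the 17 tested members with an NRF1 match and 0.30 for the 49 without, and 0.31 for the 10 with an ETS match and 0.28 for the 56 without.

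The members also shared a layout in the genome. They lay on 17 chromosomes, and 33 of the 75 tested (44%) had the start of a protein-coding gene on the opposite strand within 1000 bases of their own. Among all 11518 tested protein-coding genes the share was 16.6%. Several of these neighbours belong to mitochondria too, and they are named here for that, after their values were seen. Mrpl36 starts 29 bases from Ndufs6, a subunit of respiratory complex I, and their log2 fold changes were 0.39 and 0.58. Mrpl47 starts 615 bases from another complex I gene, Ndufb5, with -0.09 and 0.63. Mrps12 and Sars2, the mitochondrial seryl-tRNA synthetase, start 172 bases apart and had 0.30 and 0.53. In the pair of members Mrpl46 and Mrps11, whose starts lie 412 bases apart, the values were 0.26 and -0.23. Members with such a neighbour had a median log2 fold change of 0.27 and the other 42 a median of 0.33.

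In level, members spanned a wide range. Of the 77, 75 passed the filter on low counts, with mean levels from 1.299 to 63.5 CPM and a median of 17.6 CPM. Per kb of exonic length, the highest of the large subunit were Mrpl52 (45.1 CPM per kb), Mrpl43 (41.8) and Mrpl34 (28.004, the homologue of a small bacterial protein). The highest of the small subunit were Mrps21 (32.8 CPM per kb), Mrps23 (21.2) and Mrps12 (16.04, which sits near the decoding centre). The lowest tested were Mrpl13 (2.25 CPM per kb) and Mrpl48 (2.47) in the large and Mrps36 (1.02) and Mrps10 (1.11) in the small subunit. Exonic lengths join every annotated exon and can be far longer than the main transcript. With the median length of a gene's coding transcripts instead, a choice made after the data were seen, Mrpl52 (119.8 CPM per kb) and Mrps21 (59.8) still led, but Mrpl13 stood at 18.7, Mrpl48 at 23.3 and Mrps10 at 8.80 CPM per kb. Mrps36 was the lowest tested Mrps gene by either length (2.04 CPM per kb with the transcript length), while the place of the other 3 depended on the length used.

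A pair of members was almost absent from the counts and was not tested. Mrpl53, of the large subunit, had 0 and 0 counts in the controls and 1, 2 and 0 in the A20 deletion libraries. Of its exonic bases 88.0% are shared with other annotated genes. Mrpl23, a homologue of a protein at the exit of the peptide tunnel, had 4 and 3 counts in the controls and 6, 8 and 8 after deletion. None of its exonic bases are shared with another gene, but a processed pseudogene, Mrpl23-ps1, is also in the table. How reads that fit several genes were counted is not given in the sources used here, and its part in these low counts was not tested.

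No member passed the test between the groups. edgeR's quasi-likelihood test called 0 of 75 members higher and 0 lower (adjusted p under 0.05), where 2.08% of all 12240 genes tested were called higher and 0.507% lower. At an unadjusted p under 0.05 stood 13 members (17.3%), against 21% of all genes. DESeq2 called 1 member higher, Mrpl52, where it called 6.08% of all genes higher, and limma-voom called 0 members, with 1.36% of all genes higher. The smallest adjusted p in the edgeR fit was 0.0833. The estimates nonetheless leaned to one side: 65 of 75 members had a log2 fold change above 0, with a median of 0.29 and quartiles of 0.10 and 0.48, while 53.6% of all genes did, with a median of 0.05. The spread among members was narrow, since 3 of 75 (4.0%) had a change beyond 1 in size on the log2 scale, against 15.8% of all genes.

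**Figure D1:**
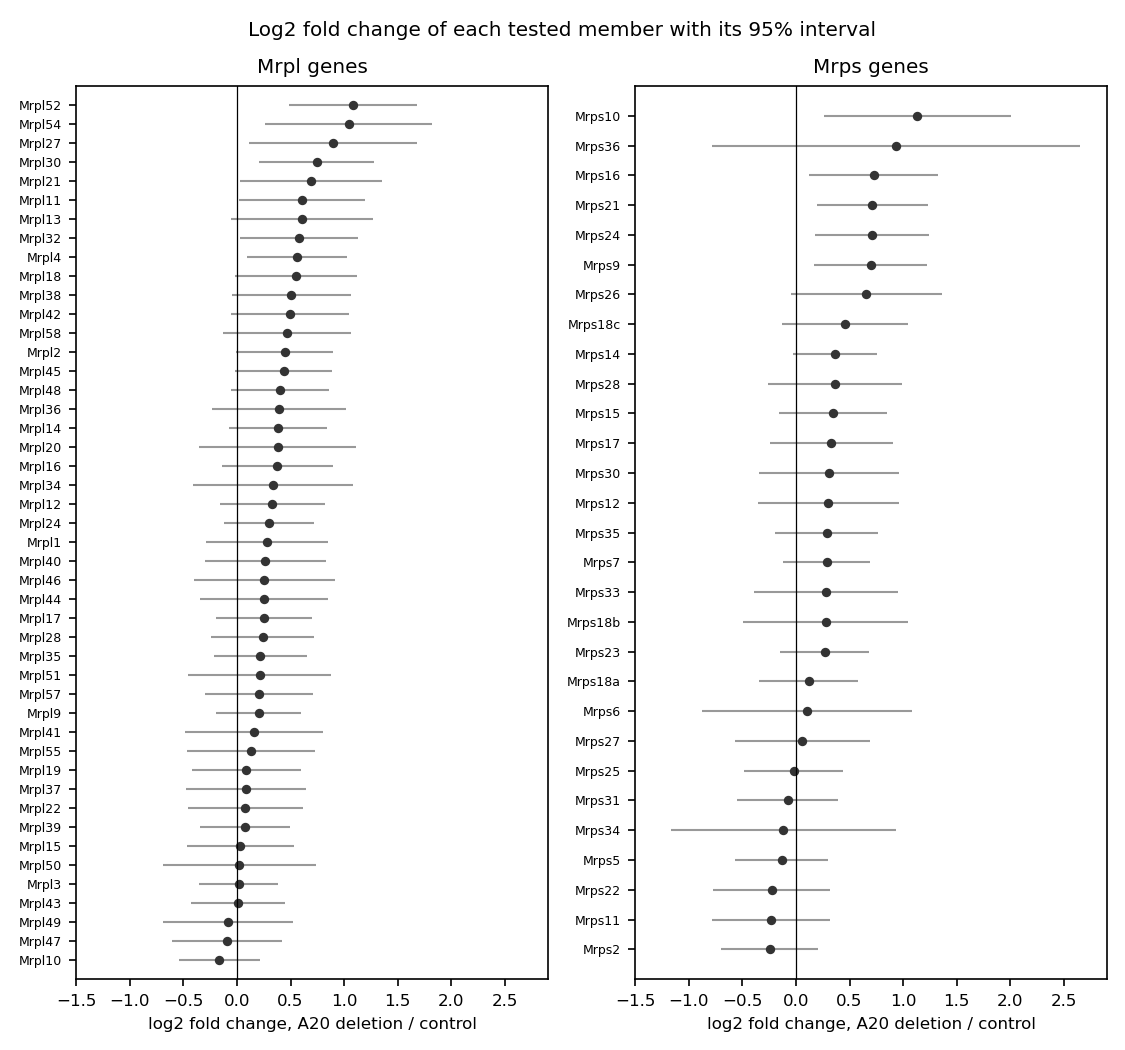
Log2 fold change of each tested member, A20 deletion over control (x axis), with its 95% interval from the edgeR fit. The left panel holds 46 Mrpl and the right 29 Mrps genes, ordered by estimate, and 62 of the 75 intervals hold 0.

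The intervals show what the design could resolve. The median half-width of a 95% interval was 0.55 on the log2 scale. For 62 of 75 members the interval held 0, and for 26 it held 1, a doubling. A missed threshold therefore does not show that a member was equal in both groups.

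The summed level of the members was 1213 and 1373 CPM in the controls. It was 1353, 1712 and 1717 CPM in replicates 1 to 3 of the A20 deletion. Replicate 1 lay between the controls, and replicates 2 and 3 lay above both, so the groups overlapped. The controls averaged 1293 ± 112.7 CPM (SD, n = 2) and the A20 deletion libraries averaged 1594 ± 208.7 CPM (SD, n = 3), a ratio of 1.23. Without A20 deletion replicate 1 the log2 ratio of the means was 0.41, and without replicate 2 or 3 it was 0.25, against 0.30 with all libraries.

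**Figure D2:**
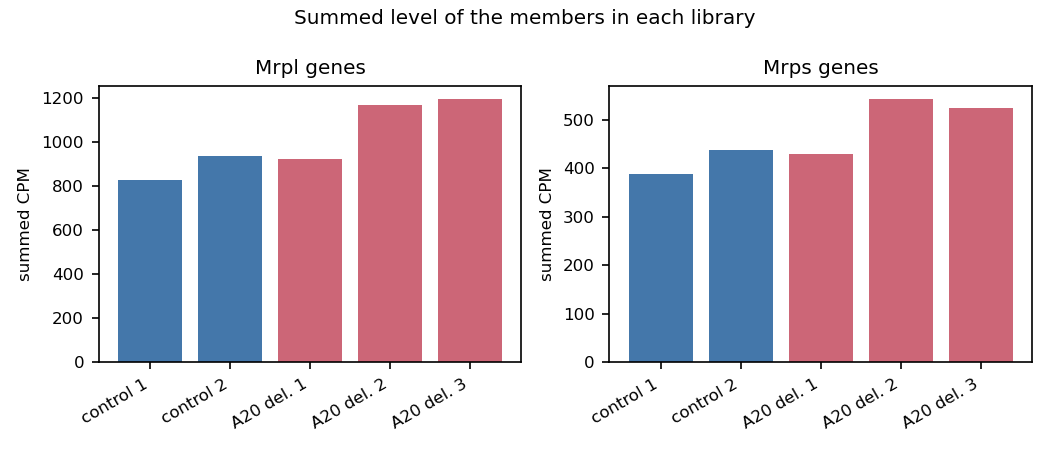
Summed CPM of the Mrpl genes (left) and the Mrps genes (right) in each library, with 1 bar per library, controls in blue and A20 deletion in red. In both panels A20 deletion replicate 1 stands at the level of the controls and replicates 2 and 3 stand above them.

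Both subunits had like median estimates. Mrpl genes summed to 826.4 and 935.3 CPM in the controls and to 923.3, 1170 and 1195 CPM after deletion. Mrps genes summed to 387.0 and 437.4 CPM in the controls and to 430.0, 542.1 and 522.8 CPM after deletion. The small-subunit share of the sum stayed between 30.4% and 31.9% in all 5 libraries. It was 31.9% in both controls and 31.8%, 31.7% and 30.4% after deletion, and the lowest value was that of A20 deletion replicate 3. The median log2 fold change was 0.29 for the 46 tested Mrpl and 0.29 for the 29 Mrps genes. Of these, 43 Mrpl and 22 Mrps genes were above 0.

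Library by library, the members split the A20 deletion group. Relative to the control mean, the median member lay at -0.07 and 0.07 in control replicates 1 and 2 and at 0.06, 0.38 and 0.38 in A20 deletion replicates 1 to 3, on the log2 scale of CPM plus 0.5. All genes tested had medians of 0.00, 0.06 and 0.05 in the same A20 deletion libraries. Above both controls stood 31 of 75 members in A20 deletion replicate 1 and 59 in each of replicates 2 and 3. Both replicates 2 and 3 were above replicate 1 for 61 members (81.3%), against 42.8% of all genes. The 3 A20 deletion libraries lay above both controls for 29 members (38.7%) and below both for 3, where 21.8% and 18.5% of all genes did. Within the female libraries the median member differed by 0.16 (A20 deletion replicate 1 minus control replicate 1). Within the others, replicates 2 and 3 minus control replicate 2, it differed by 0.30.

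**Figure D3:**
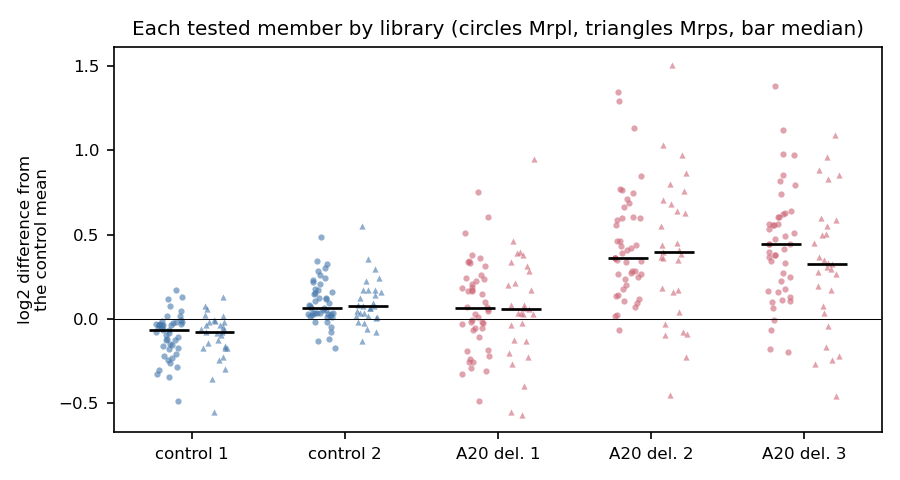
Log2 difference of each tested member from the control mean (y axis, CPM plus 0.5) in each library (x axis), with circles for 46 Mrpl and triangles for 29 Mrps genes and bars at the medians. A20 deletion replicates 2 and 3 are shifted upward, and replicate 1 is centred near the controls.

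The size of this lean differed between alternatives. With A20 deletion replicates 2 and 3 both omitted, an alternative chosen after the data were seen, the median log2 fold change was 0.07, and 45 of 75 members were above 0. With a term for the mitochondrial share it was 0.12, and with each library's trend on gene length removed it was 0.06, with 43 members above 0. The medians of all genes in these 3 fits lay between -0.01 and 0.01. Without control replicate 1 the members' median was 0.16, and without control replicate 2 it was 0.40. Tested members had a median exonic length of 2255 bases and all tested genes 4429. Among the members themselves, length and fold change were weakly related (Spearman rho -0.17 over 75 genes of the same libraries, a description), against -0.36 over all genes. Without A20 deletion replicate 1, 19 members were called higher and 0 lower, but then 15.7% of all genes were called higher and 16.7% lower, and in that fit genotype and mitochondrial share cannot be told apart.

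In the large subunit, Mrpl52 (ENSMUSG00000010406, chr14:54426909-54429756), a protein with no bacterial homologue, had 28.2 and 31.8 CPM in the controls and 45.7, 66.2 and 78.5 CPM after deletion. All 3 A20 deletion libraries were above both controls, and replicate 1 was the nearest to them. On the log2 scale the difference was 1.08 (SE 0.25, 95% interval 0.48 to 1.68, edgeR adjusted p = 0.0833). It passed with DESeq2 (adjusted p = 0.00524). It also passed in edgeR fits without the filter (adjusted p = 0.000325, where 5.06% of all genes were higher), with a term for female libraries (0.0245, where 4.6% were higher) and without A20 deletion replicate 1 (0.00127). Over all fits its log2 fold change ran from 0.51 to 1.24 and its adjusted p from 0.000325 to 0.446.

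Mrpl30, a homologue of bacterial L30, had 16.8 and 16.999 CPM in the controls and 22.1, 29.01 and 33.8 CPM after deletion. Its groups did not overlap (log2 0.74, SE 0.23, edgeR adjusted p = 0.15). Mrpl54, without bacterial homologue, had 7.40 and 7.83 CPM against 9.79, 20.1 and 17.1 CPM. Replicates 2 and 3 stood far above the controls and replicate 1 was close to them (log2 1.04, SE 0.33, edgeR adjusted p = 0.156). Mrpl4, whose bacterial homologue lines the peptide exit tunnel, had 21.6 and 20.2 CPM against 26.1, 30.97 and 35.2 CPM (log2 0.56, SE 0.20, edgeR adjusted p = 0.186). In each of these genes the lowest A20 deletion library was replicate 1, apart from the controls by a smaller step.

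**Figure D4:**
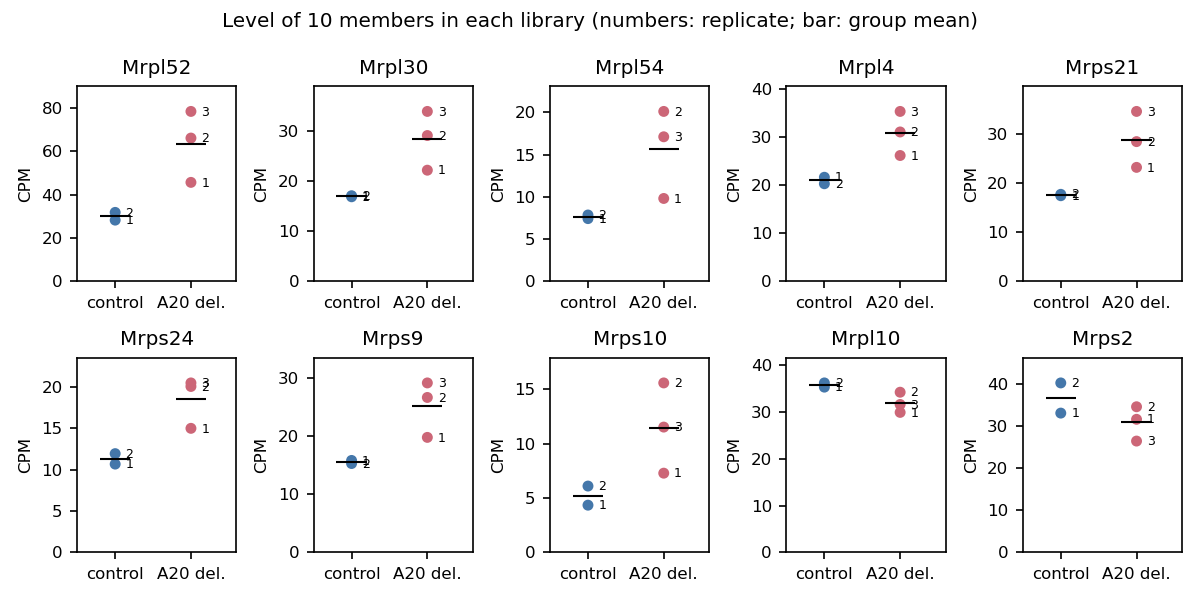
CPM (y axis) of 10 members in each library, by group (x axis), with the replicate number beside each point and a bar at the group mean. In the first 8 panels every A20 deletion library is above both controls and replicate 1 is the lowest of them, while Mrpl10 and Mrps2 have lower means after deletion.

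The stalk of the large subunit, which recruits translation factors, had estimates on both sides of 0. Mrpl10, its base, had 35.3 and 36.2 CPM in the controls and 29.9, 34.2 and 31.6 CPM after deletion. It was the Mrpl gene with the lowest log2 fold change (-0.16, SE 0.16, edgeR adjusted p = 0.559), and its 3 A20 deletion libraries were below both controls. Mrpl12, which Mrpl10 anchors, had 15.4 and 16.3 CPM against 16.5, 21.5 and 21.8 CPM (log2 0.33, SE 0.21, edgeR adjusted p = 0.38). Mrpl11, which joins the stalk base, had 13.2 and 15.1 CPM against 16.03, 23.5 and 25.4 CPM (log2 0.61, SE 0.25, edgeR adjusted p = 0.228). None of the 3 genes passed, and the difference between them was not tested.

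A further 5 Mrpl genes, named for their level per kb or their role, had estimates from 0.01 to 0.61. Mrpl43, the most abundant member, had 60.3 and 66.1 CPM in the controls and 52.8, 69.8 and 68.4 CPM after deletion, with overlapping groups (log2 0.01, SE 0.18). Its sign turned under several scalings, and 33.4% of its exonic bases are shared with Twnk, a gene on the opposite strand. Mrpl58, a peptidyl-tRNA hydrolase built into the large subunit, had 15.9 and 16.7 CPM against 16.2, 26.1 and 25.4 CPM (log2 0.47, SE 0.25). Mrpl34 had 11.5 and 17.8 CPM against 12.6, 22.1 and 20.98 CPM (log2 0.34, SE 0.32), and its sign turned with the length trend removed (-0.54), with A20 deletion replicates 2 and 3 omitted (-0.21) and with the mitochondrial term (-0.08). Mrpl13 had 14.3 and 12.8 CPM against 14.04, 23.1 and 24.9 CPM (log2 0.61, SE 0.28), and Mrpl48 16.4 and 17.3 CPM against 19.8, 21.9 and 25.2 CPM (log2 0.40, SE 0.19). Only Mrpl48 among these had no overlap between the groups, and edgeR's adjusted p was 0.265 to 0.978 for all 5.

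In the small subunit, Mrps21, a homologue of bacterial S21, had 17.4 and 17.6 CPM in the controls and 23.1, 28.4 and 34.5 CPM after deletion (log2 0.71, SE 0.22, edgeR adjusted p = 0.153). With the length trend removed its log2 fold change was -0.05. Mrps24, the mitochondrial counterpart of bacterial S3, had 10.7 and 11.9 CPM against 14.99, 20.05 and 20.5 CPM (log2 0.71, SE 0.22, edgeR adjusted p = 0.156). Mrps9 had 15.9 and 15.3 CPM against 19.8, 26.7 and 29.2 CPM (log2 0.70, SE 0.22, edgeR adjusted p = 0.163). In these 3 the groups did not overlap, and replicates 2 and 3 stood above replicate 1.

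Mrps10 (ENSMUSG00000034729, chr17:47368887-47381417), a homologue of bacterial S10, had the largest estimate of all members. It had 4.34 and 6.09 CPM in the controls and 7.28, 15.6 and 11.5 CPM after deletion, on 61 to 198 counts per library (log2 1.13, SE 0.37, 95% interval 0.26 to 2.01, edgeR adjusted p = 0.167). At the other end, Mrps2 (ENSMUSG00000035772, chr2:28468066-28471178), a homologue of bacterial S2, had 33.01 and 40.2 CPM against 31.5, 34.5 and 26.4 CPM. Its groups overlapped, and its log2 fold change of -0.25 (SE 0.19, edgeR adjusted p = 0.468) was the lowest of all members. Mrps23 had 28.1 and 30.8 CPM against 30.8, 37.97 and 37.6 CPM (log2 0.27, SE 0.18), and Mrps12 13.7 and 15.6 CPM against 12.4, 19.6 and 22.2 CPM (log2 0.30, SE 0.28). In Mrps12 A20 deletion replicate 1 was below both controls and the other replicates were above. With the length trend removed Mrps12 stood at -0.31 and Mrps23 at -0.12, and with replicates 2 and 3 omitted Mrps12 stood at -0.23.

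Several Mrps genes encode proteins that sit elsewhere. Mrps18a, Mrps18b and Mrps18c are homologues of bacterial S18, and of their proteins that of Mrps18a belongs to the large subunit. Mrps18a had 17.2 and 21.9 CPM in the controls and 19.8, 21.9 and 22.002 CPM after deletion (log2 0.12, SE 0.20). Mrps18b had 5.69 and 6.86 CPM against 5.11, 8.65 and 9.07 CPM (log2 0.28, SE 0.33), with 30.5% of its exonic bases shared with another gene. Mrps18c had 14.4 and 11.9 CPM against 13.9, 21.7 and 18.7 CPM (log2 0.46, SE 0.25). The groups overlapped in all 3, and edgeR's adjusted p was 0.322 to 0.737. Each turned sign in at least 1 alternative, Mrps18a without control replicate 1 (-0.09), Mrps18b with replicates 2 and 3 omitted (-0.29) and Mrps18c with the length trend removed (-0.13).

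Mrps30 is likewise a protein of the large subunit. It had 9.89 and 14.05 CPM in the controls and 11.6, 18.5 and 14.3 CPM after deletion (log2 0.30, SE 0.28, edgeR adjusted p = 0.534). Mrps36 is known as a component of the 2-oxoglutarate dehydrogenase complex. It was the least abundant tested member, with 11 and 14 counts in the controls and 24, 27 and 6 after deletion (log2 0.93, 95% interval -0.78 to 2.65). With Mrps18a and Mrps30 counted in the large subunit and Mrps36 left out, the small-subunit share ran from 28.3% to 29.6%.

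The 51 tested members not described one by one filled the space between these. The 34 of the large subunit had log2 fold changes from -0.09 to 0.89, with 12 above both controls in every A20 deletion library and 0 below. The 17 of the small subunit ran from -0.23 to 0.72, with 5 above and 2 below. Of all genes tested, 21.8% stood above both controls in every A20 deletion library and 18.5% below. The edgeR adjusted p of the 51 members lay between 0.187 and 0.972. The 2 members below were Mrps22 and Mrps5, named for that after their values were seen. Mrps22, whose promoter is printed above, had 9.75 and 10.01 CPM in the controls and 7.36, 9.67 and 8.25 CPM after deletion (log2 -0.23, SE 0.23). Mrps5, a homologue of bacterial S5, had 15.2 and 14.8 CPM against 13.7, 14.1 and 13.3 CPM (log2 -0.13, SE 0.18). Mrpl45, also printed, had 20.1 and 20.7 CPM against 23.7, 27.8 and 31.3 CPM (log2 0.43, SE 0.19).

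Homologues of bacterial proteins and mitochondria-specific proteins both had medians above 0. The 44 tested homologues had a median log2 fold change of 0.33 and the 27 tested specific proteins 0.26, with 0 called in each. Another 4 tested members were put in neither class and had a median of 0.33, with 0 called. Among the specific proteins, the 18 tested of the large subunit had a median of 0.26, with 17 above 0. The 9 of the small subunit had a median of 0.06, with 5 above 0. This difference was not tested. Summed levels were 744.6 and 818.3 CPM in the controls and 822.8, 1049 and 1032 CPM after deletion for the homologues. For the specific proteins they were 439.0 and 518.4 CPM against 498.1, 613.0 and 647.0 CPM. In both classes replicate 1 reached or stayed near the higher control.

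Proteins of the mitochondrial ribosome with other names gave like values. All 5 were tested and 0 passed, with a median log2 fold change of 0.24. Aurkaip1, a small-subunit protein, had 25.3 and 25.98 CPM in the controls and 31.5, 41.9 and 42.8 CPM after deletion (log2 0.59, SE 0.20, edgeR adjusted p = 0.167). Chchd1 had 12.95 and 12.96 CPM against 11.8, 18.8 and 22.3 CPM (log2 0.44, SE 0.29). Dap3, a GTP-binding small-subunit protein, had 19.1 and 21.5 CPM against 22.4, 26.3 and 23.4 CPM (log2 0.24, SE 0.18). Ptcd3, which has pentatricopeptide repeats, and Gadd45gip1, of the large subunit, had log2 fold changes of -0.06 (SE 0.20) and 0.06 (SE 0.34).

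The RNA of the ribosome is encoded in mitochondrial DNA. The small-subunit rRNA mt-Rnr1 had 259.4 and 247.8 CPM in the controls and 183.8, 769.9 and 649.9 CPM after deletion. The large-subunit rRNA mt-Rnr2 stood at 1103 and 992.2 CPM against 780.8, 2823 and 2109 CPM. A20 deletion replicate 1 was below both controls in each, and replicates 2 and 3 were above them. Their log2 fold changes were 1.08 (SE 0.53) and 0.86 (SE 0.47), and neither passed (edgeR adjusted p = 0.292 and 0.325).

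Genes that serve the ribosome had medians nearer to 0. Of 11 translation factors 0 passed (median log2 fold change 0.06). The release factor gene Mtrf1 had a log2 fold change of 0.66 (SE 0.31, edgeR adjusted p = 0.275), and Gfm2, which recycles ribosomes, had 50.9 and 50.6 CPM in the controls and 35.2, 122.3 and 89.6 CPM after deletion. Of 23 assembly and rRNA modification genes 0 passed (median 0.03), with Mpv17l2 at 0.57 (SE 0.29) and Mterf4 at 0.35 (SE 0.22). Of 17 mitochondrial aminoacyl-tRNA synthetases 0 passed (median 0.11), with Fars2 at 0.77 (SE 0.27) and Tars2 at 0.40 (SE 0.18). Of 11 genes for mitochondrial DNA transcription, replication and RNA stability 0 passed (median 0.07), with the RNA-stabilising Slirp at 1.005 (SE 0.28, edgeR adjusted p = 0.121) and the nuclease Mgme1 at -0.41 (SE 0.20).

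The regulators of mitochondrial biogenesis had 8 of 9 members tested and 0 called, with a median log2 fold change of -0.18. Gabpa, of the ETS family, had 78.7 and 63.6 CPM in the controls and 62.6, 38.99 and 37.7 CPM after deletion (log2 -0.62, SE 0.26, edgeR adjusted p = 0.234). Yy1 had 62.1 and 73.0 CPM against 59.7, 44.3 and 46.8 CPM (log2 -0.43, SE 0.19, edgeR adjusted p = 0.257). In both, replicates 2 and 3 were the lowest libraries. Ppargc1b, a coactivator named after its values were seen for the largest estimate of the list, went the other way, with 1.99 and 1.09 CPM against 2.43, 2.44 and 6.32 CPM (log2 1.26, SE 0.63, edgeR adjusted p = 0.292).

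The members' median of 0.29 is set here beside those of 3 related gene groups, each of which was higher. Nuclear-encoded respiratory chain subunits (79 tested) had a median log2 fold change of 0.62 with 1 called higher. Cytosolic ribosomal proteins (73 tested), whose reads may be split among near-identical copies, had 1.16 with 12 called higher. Neither group had a member called lower. Of all genes tested, 2.08% were called higher and 0.507% lower. In A20 deletion replicates 1 to 3 the medians from the control mean were 0.27, 0.68 and 0.76 for the respiratory subunits and 0.66, 1.26 and 1.39 for the cytosolic ribosome. The mitochondrially encoded protein genes (7 of 13 tested, median log2 fold change 1.74) stood at -0.16, 2.43 and 2.00. The untested ones were mt-Co2, mt-Co3, mt-Atp6, mt-Atp8, mt-Nd3 and mt-Nd4l. They had 0 counts in every library, except 1 count of mt-Co2 in A20 deletion replicate 3. The mitochondrial share above therefore leaves them out, and the reason for their missing counts was not tested. Among the A20 deletion libraries replicate 1 was the lowest in all 4 groups, and the difference between the groups was not tested.

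**Figure D5:**
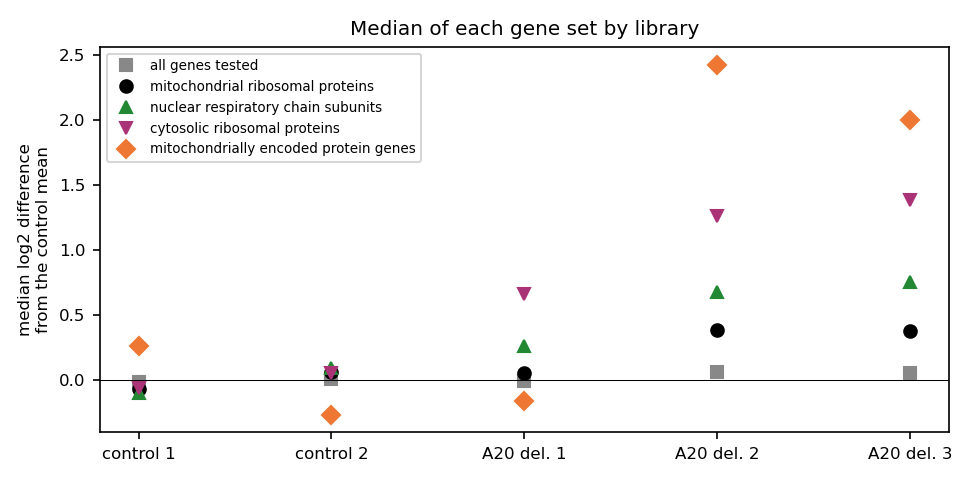
Median log2 difference from the control mean (y axis, CPM plus 0.5) of 5 gene sets in each library (x axis). In A20 deletion replicates 2 and 3 the mitochondrial ribosomal proteins lie above all genes and below the respiratory chain subunits and cytosolic ribosomal proteins.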

How the data were processed

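RNA of sorted eYFP-positive mouse microglia was sequenced in 5 libraries, 2 control and 3 A20 deletion. The deposited values are read counts per Ensembl gene, not normalized; per the submitters' processing notes, the tools were STAR 2.4.0j, featureCounts and DESeq2 1.22.1 on GRCm38. For annotation release, strand and multi-mapping reads, the setting is not given in the sources used here. Symbols, lengths and positions came from GENCODE M21 (GRCm38), which matched 40254 of 41388 identifiers. The 1134 others stayed in the tests.

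Counts were filtered with filterByExpr (minimum count 10), scaled with TMM factors (trimmed mean of M values) and tested with edgeR 4.0.16 (R 4.3.3) by the quasi-likelihood test, two-sided, with Benjamini-Hochberg adjustment over all 12240 genes tested and a threshold of 0.05. The standard error is the log2 fold change over the square root of F. Per-library differences used log2(CPM + 0.5). Alternatives used DESeq2 1.42.0 and limma 3.58.1, other scalings and filters, added terms, a replicate block, and each library left out. The procedure was tested on simulated data that held no shift in mitochondrial share or gene length between libraries. The outcome is not reported here. The members, lists and the rule for named genes (the smallest p, the highest and lowest levels and the extreme changes in each subunit, plus members of known role) were chosen with earlier results of these data known. Reads have no molecular identifiers, so counts bound only counting error.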

Additional observations from a re-analysis of the deposited data

How the results depend on the processing

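Over the 20 alternatives the number of members called higher stayed at 0 except in 4: it was 3 without a filter on low counts, 1 with DESeq2, 1 with a term for libraries with Xist counts and, in the fits that leave out a library, between 0 and 19 (19 without A20 deletion replicate 1). No alternative called a member lower. For all genes the numbers higher and lower were 56 and 2 at an adjusted p under 0.01, 1048 and 653 without a filter, 744 and 366 with DESeq2, 166 and 45 with limma-voom, 563 and 261 with the Xist term, and 0 to 1902 and 0 to 2021 without a library (none without control replicate 2, most without A20 deletion replicate 1). The median log2 fold change of the members, 0.29, was 0.0586 with the length trend removed and 0.0704 with A20 deletion replicates 2 and 3 omitted. It ran from 0.16 (without control replicate 1) to 0.40 (without control replicate 2) when a library was left out, and from 0.25 to 0.36 over the scalings. The cause of these shifts was not tested. Leaving out a library moved the log2 ratio of the summed level between 0.22 and 0.41 and the difference in small-subunit share between -0.82 and -0.16 percentage points, the latter without A20 deletion replicate 3.

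With the replicate number as a block, 228 genes were higher and 32 lower, 0 members passed, and the median of the members was 0.24. The labels do not say what a number shares, and both libraries numbered 1 were female by Xist. Deviations from the group means correlated at 0.27 for libraries numbered 1 and 0.18 for those numbered 2. Deviations of the controls are equal and opposite, so these values are not independent of each other.

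Of 24 named members 10 turned direction in at least 1 alternative, and none of the turned values passed. Mrpl43 was -0.0190 with DESeq2 size factors, -0.0234 with library size alone, -0.0191 with DESeq2, -0.0292 without a filter, -0.0557 with the replicate block, -0.0450 with the Xist term, -0.20 with the mitochondrial term, -0.39 with the length trend removed, -0.25 with A20 deletion replicates 2 and 3 omitted, and between -0.0989 and 0.102 when a library was left out, the lowest with control replicate 1 out and the highest with A20 deletion replicate 1 out, with -0.0470 and -0.0332 without A20 deletion replicates 2 and 3. With the mitochondrial term Mrpl34 was -0.0807, Mrps12 -0.11 and Mrps18b -0.16. With the length trend removed Mrpl12 was -0.0682, Mrpl34 -0.54, Mrps12 -0.31, Mrps18b -0.00436, Mrps18c -0.13, Mrps21 -0.0547 and Mrps23 -0.12. With A20 deletion replicates 2 and 3 omitted Mrpl34 was -0.21, Mrps12 -0.23, Mrps18b -0.29 and Mrps30 -0.0344. Mrps18a was -0.0899 without control replicate 1. Fits that leave 1 library in a group assume that it varies like the others. Members at a few counts, Mrpl53 and Mrpl23, cannot be compared at this depth.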
